A study of Mus musculus with 12 samples.

Results

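The genes described here are 10 immediate early and AP-1 genes of the mouse esophageal epithelium: Fos, Fosb, Fosl1, Fosl2, Jun, Junb, Jund, Egr1, Atf3 and Ier3. They were chosen by name, as the rows with these symbols among the 23337 gene symbols of each count file, and all 10 were among the 14134 genes that passed the filter on low counts. No member was called different between genotypes by edgeR in any of 8 comparisons. From 0 to 2.72% of all tested genes were called in these, so 0 calls among 10 genes lie near that share. Levels of Fos, Fosb, Atf3, Egr1 and Jun differed far more between libraries of 1 genotype than those of most genes. Junb, Jund and Ier3 spanned about 2-fold over the 12 libraries, and Fosl2 spanned 1.47-fold.

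RNA sequencing of poly(A) RNA was carried out on epithelium stripped mechanically from the esophagus of C57BL/6 mice at 6 weeks of age, with 4 genotype groups of 3 libraries each. Control mice carried ROSA26-StopFL-Ikk2ca+/L and Stat3L/L without Cre, so the inactive transgene and the floxed Stat3 alleles were present there too. The group labelled Ikkβca carried ED/L2-Cre+ and ROSA26-StopFL-Ikk2ca+/L, with no floxed Stat3 allele named. ED/L2 is an Epstein-Barr virus promoter used to drive Cre in esophageal epithelium, and Ikk2ca encodes a constitutively active form of IKKβ, the kinase that releases NF-κB from its inhibitor. Mice labelled Stat3KO carried ED/L2-Cre+ and Stat3L/L, and those labelled Ikkβca+Stat3KO carried ED/L2-Cre+, ROSA26-StopFL-Ikk2ca+/L and Stat3L/L. Cre is thus absent from Control alone, and any comparison with Control also compares Cre with no Cre. The labels do not say whether the replicates were separate animals, so the p-values measure the spread between these libraries.

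Immediate early genes are transcribed within minutes of a growth factor, cytokine or stress signal, without new protein synthesis, and their messages are short-lived. Fos and Jun proteins pair through leucine zippers to form AP-1, which binds TGANTCA elements, and Fos proteins need a Jun partner to bind DNA. In stratified epithelia AP-1 acts on genes of growth, wound response and terminal differentiation.

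Promoters of 4 members are shown because Fos, Fosb and Jun are among the members that varied most between libraries and Junb varied less than they did. Each line is a 100-base stretch that ends 10 bases before the RefSeq transcription start, read 5′ to 3′ on the gene's own strand from the GRCm38.p6 table, and contains no annotated exon. Capitals mark TGACG, the core of the cAMP response element bound by CREB and ATF proteins, the TATAAA box, and TGACATCA, a variant AP-1 and ATF element.
Fos, chr12:85473780-85473879, plus strand: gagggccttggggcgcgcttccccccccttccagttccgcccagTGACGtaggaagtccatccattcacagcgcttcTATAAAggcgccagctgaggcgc
Fosb, chr7:19310056-19310155, minus strand: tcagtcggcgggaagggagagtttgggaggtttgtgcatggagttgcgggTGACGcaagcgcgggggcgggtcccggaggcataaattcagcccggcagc
Jun, chr4:95052233-95052332, minus strand: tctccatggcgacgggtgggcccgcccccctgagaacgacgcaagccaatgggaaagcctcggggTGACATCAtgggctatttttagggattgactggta
Junb, chr8:84978759-84978858, minus strand: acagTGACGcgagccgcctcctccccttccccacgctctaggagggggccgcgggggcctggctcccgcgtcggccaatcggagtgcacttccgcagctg

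The RefSeq table held 8 of the 10 members, and the 250 bases before each start were searched on both strands. TGACG was found in 4 of the 8, in Fos at 129 and 66 bases, Fosb at 60, Junb at 106 and Atf3 at 7 bases before the start, against 17.8% of all 32851 promoters of that length. Fos, Fosb and the less variable Junb thus share this element. TGACATCA was found in Jun alone of the 8, at 45 bases, against 2.93% of promoters, and TATAAA in Fos alone, at 33 bases, against 12.4%. The full element TGACGTCA (1.55% of promoters), TGANTCA (6.75%) and the CArG box bound by serum response factor (1.47%) were found in none of the 8. Bases farther than 250 from the start were not searched, so a CArG box or other element there would be missed. The NF-κB consensus was found in Fos, Fosb, Fosl2 and Ier3, against 7.25% of promoters. These are letter matches in a short window, and a promoter with TGACGTCA is also counted under TGACG. RefSeq starts can also differ from the gene annotation (GENCODE M21). Of the 100-base stretches, that of Fosl2 was wholly annotated exon and that of Ier3 held 19 exon bases. That of Atf3 lay within its annotated gene, and that of Jund ended at base 70697728, before its annotated start at 70698949. Matches and absences in these genes may thus not describe the bases before the annotated start.

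Library totals ran from 14.8 to 30.2 M counts. All 10 squamous markers were detected in every library. Their summed level was 70280 to 159476 CPM (read counts put on a common library size). Here and below, summed CPM of marker lists were scaled by library totals alone, without TMM factors. CPM levels of single genes were scaled with TMM factors. Transcripts of neighbouring tissue were uneven: 12 gastric markers summed to 1907 CPM in Ikkβca replicate 1, 107 in Stat3KO replicate 3, 21.3 in Stat3KO replicate 1 and at most 2.85 elsewhere, with Gkn2 at 0 in all 12 libraries. Krt4 and Krt13, suprabasal keratins, took from 4.05 to 13.9% of counts. In such bulk tissue, fewer cells of a type and less RNA per cell cannot be told apart. Xist marked replicate 1 of each group as female and Y-linked Ddx3y marked replicates 2 and 3 as male. Stat3 itself stood at 139, 154 and 145 CPM in Stat3KO against 174, 157 and 179 in Control. In Ikkβca+Stat3KO it stood at 170, 154 and 194 CPM, against 158, 222 and 239 in Ikkβca, and overlapped both Ikkβca and Control. Gene counts do not show whether the floxed exons were present. Ikbkb, which encodes IKKβ, had 97.7, 84.6 and 94.1 CPM in Ikkβca against 82.6, 60.7 and 59.7 in Control.

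Per kilobase of annotated exon, the Jun family led. The median over 12 libraries was 113 CPM per kilobase for Jund, 83.7 for Junb, 34.8 for Jun, 32.6 for Ier3, 22.9 for Egr1, 21.9 for Fosl2, 16.1 for Fos, 6.76 for Atf3, 2.58 for Fosb and 0.243 for Fosl1. In this order the ranges over the 12 libraries overlapped between all neighbours except Junb and Jun. Fos ranged from 2.38 to 60.2 CPM per kilobase, from below the median of Fosb to above the median of Jun. Exon lengths came from GENCODE M21 on GRCm38, the mm10 build. Of the exon bases, 1163 of Fosl1 are shared with Ccdc85b, 877 of Jund with Gm11175, 232 of Jun with Junos and 173 of Junb with Prdx2, each on the opposite strand. The strand of the libraries is not stated, so some reads of these members may belong to the partner gene.

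**Figure D1:**
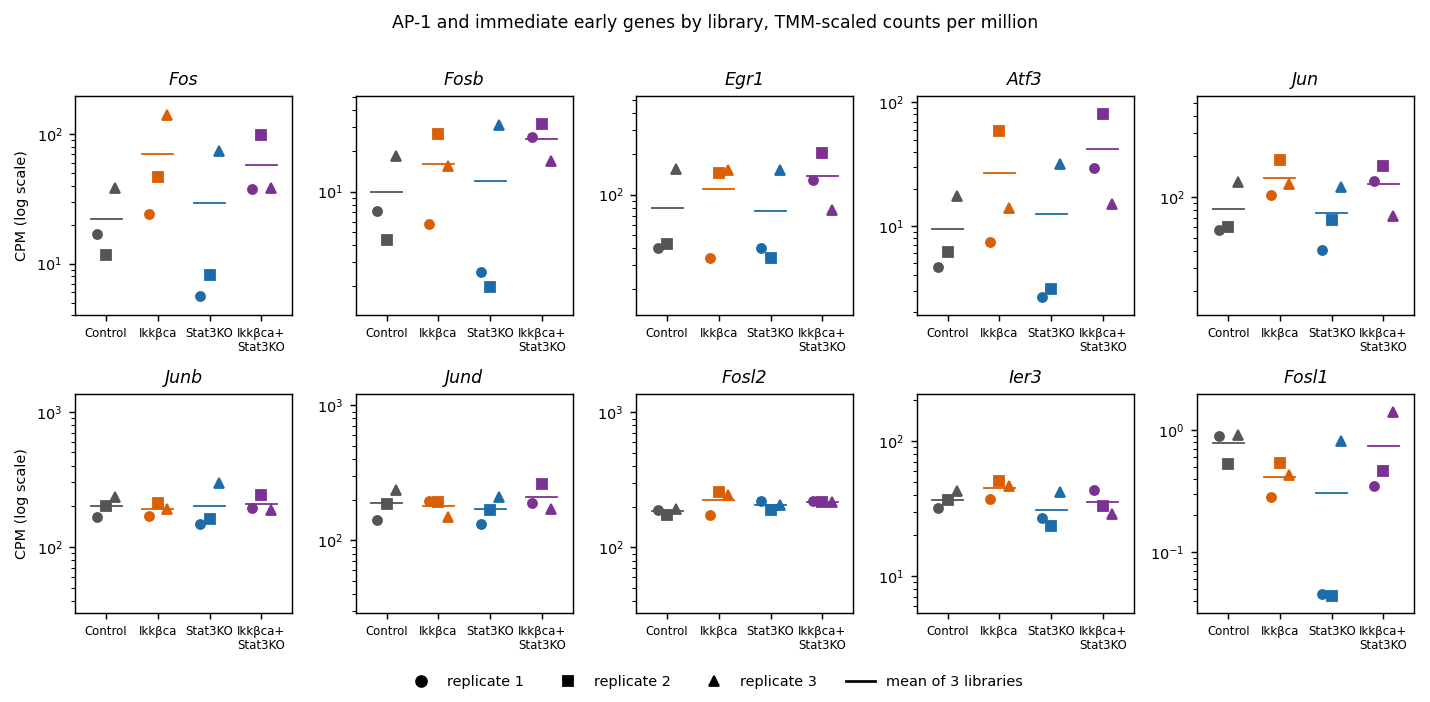
Level of each member in each library, in CPM on a log axis of its own, by genotype group, with marker shapes for replicates 1 to 3 and a line at the mean of 3 libraries. Fos runs from 5.59 to 142 CPM and the points of different groups overlap, while the 12 points of Fosl2 lie between 174 and 256 CPM.

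The Fos family holds the partners that need Jun to bind DNA. Fos (chromosome 12, 85473890 to 85477273, plus strand) had 16.9, 11.7 and 38.3 CPM in Control replicates 1, 2 and 3, and 24.4, 46.4 and 142 CPM in Ikkβca. It had 5.59, 8.17 and 74.6 CPM in Stat3KO and 37.4, 97.8 and 38.2 CPM in Ikkβca+Stat3KO. The 3 libraries in Stat3KO held both the lowest pair of the 12 and the third highest value. Group means were 22.3 ± 14.1 CPM (SD, n = 3) in Control, 70.8 ± 62.4 in Ikkβca, 29.5 ± 39.1 in Stat3KO and 57.8 ± 34.6 in Ikkβca+Stat3KO. The order of these means was Ikkβca, Ikkβca+Stat3KO, Stat3KO and Control, and no neighbours in it differed beyond their spread. The SD was 59.9% of the mean or more in each group.

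Fosb (chromosome 7, 19302696 to 19310051, minus strand), a close relative of Fos induced by the same signals, had 7.16, 4.39 and 18.3 CPM in Control and 5.72, 26.5 and 15.5 in Ikkβca. In Stat3KO it had 2.52, 1.98 and 31.1 CPM, and in Ikkβca+Stat3KO 25.5, 31.5 and 16.7. As for Fos, the third Control library and the third Stat3KO library were the high ones of their group. Ikkβca+Stat3KO had the highest mean, 24.6 ± 7.46 CPM (SD, n = 3), and the smallest SD relative to its mean, 30.4%. Its 3 libraries still overlapped Control, where replicate 3 stood at 18.3 CPM.

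Fosl1 (chromosome 19, 5447547 to 5455946, plus strand) encodes Fra-1, an AP-1 member associated with migrating and wounded epithelium. It was the least abundant member, with 16, 10 and 24 counts in Control, 6, 11 and 10 in Ikkβca, 1, 1 and 15 in Stat3KO and 7, 8 and 27 in Ikkβca+Stat3KO. On the CPM scale these are 0.0439 to 1.41. The counts of 1 in both Stat3KO libraries were the lowest of the 12, and replicate 3 of that group lay within the Control range. Differences in Fosl1 thus rest on 1 to 27 counts a library and are poorly resolved at this depth.

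Fosl2 (chromosome 5, 32135801 to 32157842, plus strand), which encodes Fra-2, was the most even member. It had 191, 174 and 191 CPM in Control, 174, 256 and 245 in Ikkβca, 221, 190 and 205 in Stat3KO and 219, 219 and 219 in Ikkβca+Stat3KO. The highest of the 12 values was 1.47 times the lowest. All 3 Ikkβca+Stat3KO libraries lay above all 3 Control libraries, the only pair of groups that did not overlap for any member among the 5 pairs compared. The log2 fold change was 0.24 ± 0.14 (SE, edgeR adjusted p = 0.574, exact 2-sided permutation p = 0.1, the smallest that 3 libraries against 3 allow), and 15% of all tested genes did not overlap in that comparison. For the other pairs, where 0 of 10 members were free of overlap, the share of all genes was 17.6% for Ikkβca and 13.1% for Stat3KO against Control, and 14.7% and 12.9% for Ikkβca+Stat3KO against Ikkβca and against Stat3KO.

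The Jun family supplies the partner that every Fos protein needs. Jun (chromosome 4, 95049034 to 95052222, minus strand) had 56.8, 59.6 and 128 CPM in Control, 103, 187 and 124 in Ikkβca, 40.2, 68.0 and 119 in Stat3KO and 131, 169 and 72.6 in Ikkβca+Stat3KO. Means were 81.4 ± 40.3 CPM (SD, n = 3), 138 ± 43.6, 75.6 ± 39.9 and 124 ± 48.4 in the same order of groups. Both groups with the active kinase had the higher means, and in both at least 1 library lay below Control replicate 3.

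Junb (chromosome 8, 84974484 to 84978718, minus strand), often an antagonist of Jun in keratinocytes, had 168, 202 and 232 CPM in Control, 169, 212 and 191 in Ikkβca, 147, 162 and 298 in Stat3KO and 194, 242 and 189 in Ikkβca+Stat3KO. Its 4 group means lay between 191 and 208 CPM, closer together than the libraries of any 1 group. Jund (chromosome 8, 70698949 to 70700616, plus strand), the Jun member transcribed without stimulation in most tissues, had 142, 186 and 238 CPM in Control and 195, 193 and 150 in Ikkβca. It had 133, 168 and 211 CPM in Stat3KO and 189, 264 and 172 in Ikkβca+Stat3KO. Its group means lay between 171 and 208 CPM, beside SDs within groups of 25.4 to 48.5 CPM.

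Egr1 (chromosome 18, 34859823 to 34864984, plus strand) is a zinc finger factor outside AP-1 that answers to the MAP kinase and serum response factor route also used by Fos. It had 40.2, 43.3 and 155 CPM in Control, 33.9, 146 and 151 in Ikkβca, 40.0, 34.2 and 152 in Stat3KO and 129, 204 and 76.8 in Ikkβca+Stat3KO. The values fell into a low set of 5 libraries at 33.9 to 43.3 CPM and a set of 7 at 76.8 to 204 CPM. Each set held libraries of Control, Ikkβca and Stat3KO, and the Ikkβca+Stat3KO libraries were all in the upper set.

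Atf3 (chromosome 1, 191170296 to 191218039, minus strand), a stress-induced factor of the ATF and CREB family that can pair with Jun proteins, had 4.64, 6.17 and 17.6 CPM in Control and 7.47, 59.2 and 14.1 in Ikkβca. In Stat3KO it had 2.66, 3.12 and 31.9 CPM, and in Ikkβca+Stat3KO 29.4, 81.0 and 15.1. The 2 highest values were those of Ikkβca replicate 2 and Ikkβca+Stat3KO replicate 2. Group means ran from 9.46 ± 7.06 CPM (SD, n = 3) in Control to 41.8 ± 34.7 in Ikkβca+Stat3KO, with a highest value 30.5 times the lowest over the 12 libraries.

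Ier3 (chromosome 17, 35821684 to 35822923, plus strand), an immediate early gene known as an NF-κB and p53 target that modulates cell survival, had 31.7, 36.4 and 42.3 CPM in Control and 37.3, 50.4 and 46.4 in Ikkβca. In Stat3KO it had 26.7, 23.4 and 41.7 CPM, and in Ikkβca+Stat3KO 43.5, 32.9 and 28.9. Every group overlapped every other, and the highest value was 2.15 times the lowest.

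The members thus differed widely in how variable they were within a genotype. The pooled within-group SD of log2 CPM was 1.48 for Atf3, 1.34 for Fosb, 1.33 for Fos, 1.07 for Egr1, 0.95 for Fosl1 and 0.64 for Jun, against a median of 0.28 over all 14134 genes. Only 1.33% of genes had a larger SD than Atf3, 1.72% than Fosb, 1.80% than Fos and 3.37% than Egr1. Junb at 0.33, Jund at 0.31 and Ier3 at 0.30 were slightly above the median gene, and Fosl2 at 0.16 was below it. Among the genes within a log2 unit centred on the level of Egr1 the median SD was 0.18, and 0.894% of them exceeded Egr1. For Fosl1, whose neighbours in level are also sparse, 23.1% did. Genes of like level also exceeded Junb in 22.9% of cases, Jund in 24.0%, Ier3 in 22.4% and Fosl2 in 64.2%, so of these 4 members Fosl2 alone varied less than most genes of its level.

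**Figure D2:**
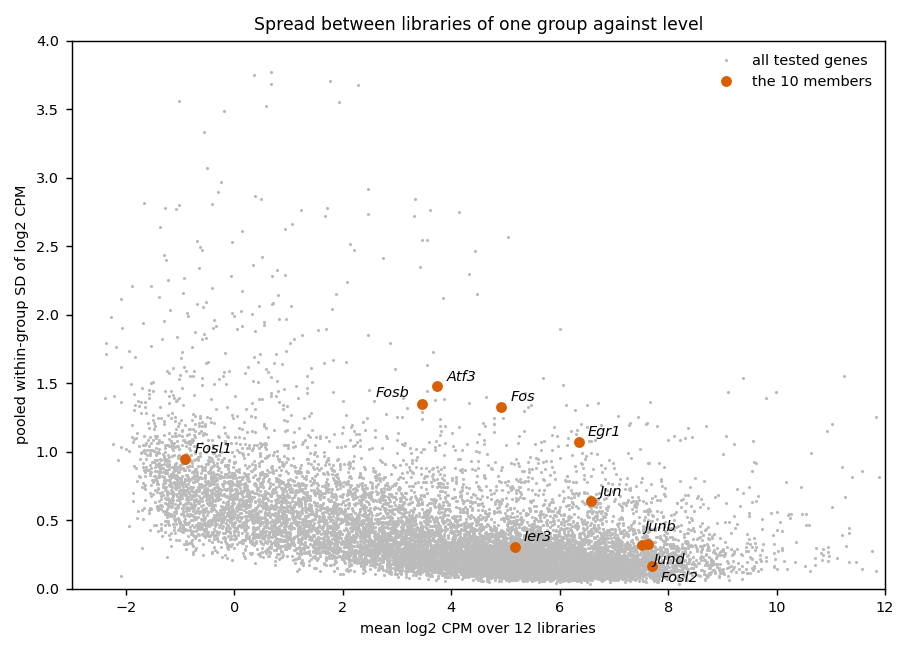
Pooled within-group SD of log2 CPM against mean log2 CPM over 12 libraries, with a grey point for each tested gene and the 10 members in orange; 20 genes lie outside the axes. Atf3, Fosb, Fos and Egr1 lie above nearly all genes of their level, at SDs of 1.48, 1.34, 1.33 and 1.07, while Fosl2 lies at 0.16.

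The high and low libraries were largely the same for different members. In Control, replicate 3 was the highest library for 10 of 10 members, against 37.1% of all tested genes, and for 6 of 10 when libraries were scaled by their totals. In Stat3KO, replicate 3 was the highest for 9 of 10 under either scaling, against 35.8% of genes. In Ikkβca, replicate 1 was the lowest for 9 of 10 (7 with library totals), against 39.7% of genes. In Ikkβca+Stat3KO replicate 2 was the highest for 7 of 10 (8 with library totals), against 44.2% of genes. Members share libraries and signals, so these counts describe the libraries and are not independent tests. The share of counts held by Krt4 and Krt13 was also highest in Control replicate 3 (13.9%, against 5.22 and 6.22%) and Stat3KO replicate 3 (10.4%, against 6.01 and 6.62%), and lowest in Ikkβca replicate 1 (5.06%, against 13.8 and 12.8%). In Ikkβca+Stat3KO it was lowest in replicate 2 (4.05%, against 11.6 and 13.4%), where the labile members were highest. Ikkβca replicate 1 and Stat3KO replicate 3 also held the most gastric transcripts, and the part of these differences in the member levels was not tested.

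**Figure D3:**
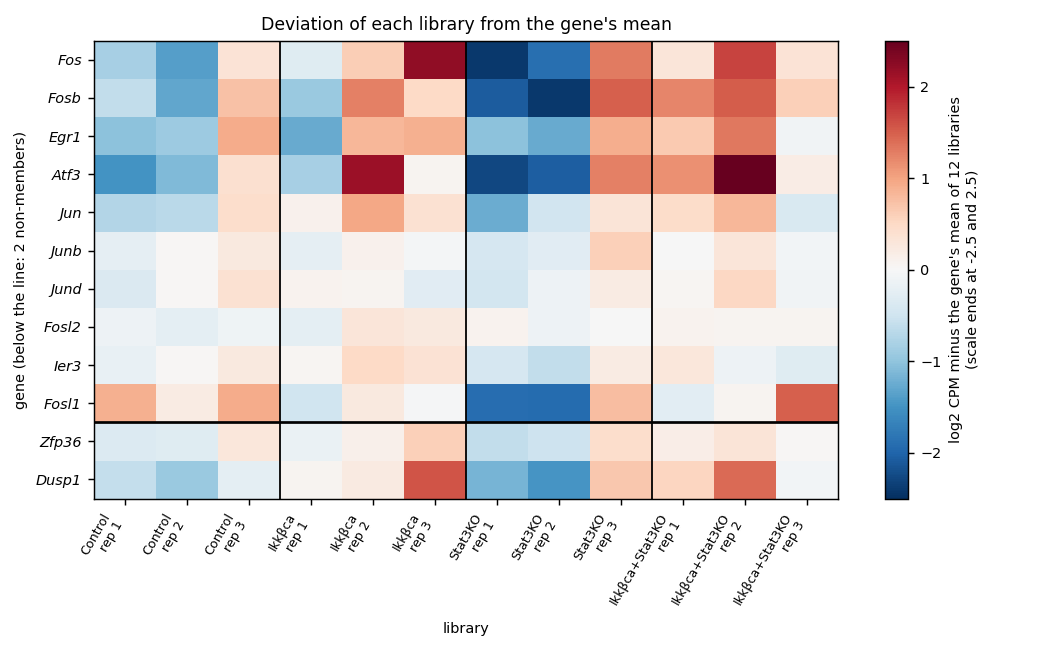
Log2 CPM of each member, and of Zfp36 and Dusp1 below the line, minus that gene's mean over 12 libraries, in colour, with libraries in columns grouped by genotype. Fos, Fosb, Egr1, Atf3 and Jun are low together in the first and second libraries of Control and Stat3KO, and high together in Stat3KO replicate 3 and Ikkβca+Stat3KO replicate 2.

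The likeness of other genes to Fos was measured across the libraries. Among tested genes outside the members with an average log2 CPM of at least 1, the 5 highest Pearson correlations of log2 CPM with Fos over 12 libraries were 0.97 for Zfp36, 0.95 for Dusp1, 0.91 for Ppp1r15b, 0.89 for Ube2j1 and 0.89 for Fbxo30. Zfp36 encodes tristetraprolin, which speeds the decay of AU-rich messages, Dusp1 a phosphatase that switches off MAP kinases, and Ppp1r15b a regulatory subunit of a phosphatase. With group means removed the values were 0.97, 0.94, 0.87, 0.87 and 0.83. Dusp1 had 46.0, 36.6 and 58.8 CPM in Control, 73.1, 81.7 and 209 in Ikkβca, 31.2, 25.1 and 111 in Stat3KO and 101, 187 and 66.6 in Ikkβca+Stat3KO. It was thus highest in the same library of each group as Fos. Of the members, Fosb correlated with Fos at 0.88, Egr1 at 0.86, Jun and Atf3 at 0.82, Junb at 0.69, Ier3 at 0.67, Fosl1 at 0.56, Jund at 0.50 and Fosl2 at 0.49. The points share library, depth and scaling, and these values are descriptions. The genes most like the sparse Fosl1 were Ddx39, Nxt1, Pomp, Eif3g and Chchd7, at 0.84 to 0.87.

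Ikkβca was compared with Control to ask what the kinase changes where Stat3 is intact. No member was called by edgeR at an adjusted p below 0.05, where 0.955% of all tested genes were, 127 higher and 8 lower. None had an unadjusted p below 0.05, and the DESeq2 Wald test also called 0 of 10. Estimates were above 0 for 7 of 10, with a median log2 fold change of 0.37 against 0.00 over all genes. Fos stood at 1.66 ± 0.95 (SE, edgeR adjusted p = 0.498), with a 95% interval from -0.43 to 3.74, and Atf3 at 1.49 ± 1.05 (edgeR adjusted p = 0.591). Jun was at 0.76 ± 0.45, Fosb at 0.67 ± 0.94, Egr1 at 0.47 ± 0.74 and Fosl1 at -0.78 ± 0.89. Leaving out single libraries moved Atf3 between 0.15 (without Ikkβca replicate 2) and 2.30 (without Control replicate 3), and Fosb between 0.05 and 1.45 without the same libraries. Fos moved between 0.65 (without Ikkβca replicate 3) and 2.29 (without Control replicate 3). The other 4 members were bounded more tightly. The 95% intervals of Fosl2 (-0.03 to 0.59), Junb (-0.62 to 0.47), Jund (-0.59 to 0.44) and Ier3 (-0.22 to 0.78) all lay within a 2-fold change either way. Intervals of Fos, Fosb, Atf3, Egr1, Fosl1 and Jun reached past 2-fold, so these data do not bound those genes within such a change.

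Stat3KO alone was compared with Control to ask what depends on Stat3 without the active kinase. Neither edgeR nor DESeq2 called a member, and edgeR called 0% of all genes (1060 of 14134 had an unadjusted p below 0.05, none of them a member, and DESeq2 called 104). The members divided evenly, 5 above 0 and 5 below, with a median log2 fold change of -0.03 against -0.02 over all genes. Fos stood at 0.39 ± 0.95 (SE), Atf3 at 0.38 ± 1.06, Fosb at 0.24 ± 0.94, Egr1 at -0.08 ± 0.74 and Fosl1 at -1.18 ± 0.92. Stat3KO replicate 3 set the sign of several of these. Without that library Fos was at -1.70 (edgeR adjusted p = 0.625), Fosb at -2.11 (edgeR adjusted p = 0.513), Atf3 at -1.70 (edgeR adjusted p = 0.692) and Egr1 at -1.11 (edgeR adjusted p = 0.725), all uncalled, with 2 libraries left in the group. The skeletal muscle markers also summed highest in that library, at 1606 CPM against 20.1 to 334 in Control. They also summed to 869 CPM in Stat3KO replicate 2, where Fos was at 8.17 CPM, and to 902 CPM in Ikkβca replicate 1, where Fos was lowest of its group. The part of muscle transcripts in the member levels was not tested. Junb at 0.01 ± 0.25, Jund at -0.15 ± 0.23, Fosl2 at 0.15 ± 0.14 and Ier3 at -0.27 ± 0.23 again had intervals within 2-fold.

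**Figure D4:**
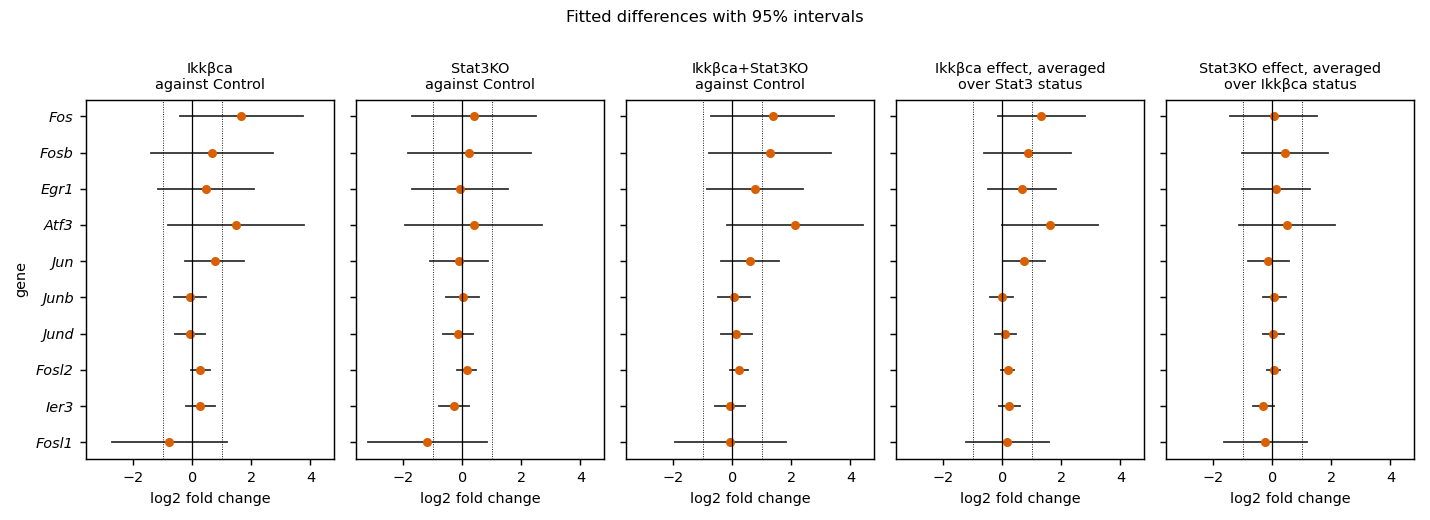
Fitted log2 fold change of each member with its 95% interval in 5 comparisons, with dotted lines at a 2-fold change either way. The intervals of Junb, Jund, Fosl2 and Ier3 stay between the dotted lines in each panel, and those of Fos, Fosb, Egr1, Atf3 and Fosl1 cross them.

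Ikkβca+Stat3KO was compared with Control, with Ikkβca and with Stat3KO. Against Control no member was called where 0.884% of genes were, and 8 of 10 estimates were above 0, with a median of 0.42. Atf3 had the smallest p, at 2.12 ± 1.05 (SE, edgeR adjusted p = 0.496), followed by Fosl2, with Fos at 1.37 ± 0.95, Fosb at 1.29 ± 0.94, Egr1 at 0.78 ± 0.74 and Jun at 0.61 ± 0.45. Against Ikkβca, which asks what Stat3KO adds there, no member and 0% of all genes were called (1396 genes and no member had an unadjusted p below 0.05, and DESeq2 called 131 genes and no member). Fos was at -0.29 ± 0.94, Atf3 at 0.63 ± 1.04 and Ier3 at -0.35 ± 0.23. Against Stat3KO, where both groups carry Cre, no member was called where 0.46% of genes were. All 10 estimates were above 0 there, with a median of 0.79 against 0.01 over all genes, from 0.04 for Junb to 1.74 ± 1.04 for Atf3, and the members move together by library. Without Stat3KO replicate 3 that difference was 3.05 for Fos, 3.39 for Fosb and 3.81 for Atf3, and without Ikkβca+Stat3KO replicate 2 it was 0.36, 0.83 and 0.83. Against Control, leaving out the latter library lowered Atf3 to 1.22. These comparisons share the Ikkβca+Stat3KO libraries and are not separate evidence.

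The interaction asks whether Ikkβca acted differently with and without Stat3. No member and 0% of all genes were called by edgeR, 658 genes and no member had an unadjusted p below 0.05, and DESeq2 called 5 genes and no member. Fosl1 had the largest estimate, 1.89 ± 1.28 (SE), on the sparse counts given above, and Fos stood at -0.68 ± 1.34. The intervals were wide: for Fos from -3.63 to 2.26.

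Averaging over Stat3 status sets 6 libraries with the active kinase against 6 without it. No member was called where 2.72% of genes were, 300 higher and 84 lower. Estimates were above 0 for 9 of 10 members, with a median of 0.45. Jun, at 0.74 ± 0.32 (SE, interval 0.04 to 1.43), was the only member with an unadjusted p below 0.05 and did not pass (edgeR adjusted p = 0.300). Atf3 was at 1.61 ± 0.74 (edgeR adjusted p = 0.334), Fos at 1.32 ± 0.67 (edgeR adjusted p = 0.387), Fosb at 0.86 ± 0.66 and Egr1 at 0.66 ± 0.52. Leaving out single libraries moved Fos between 0.82 (without Ikkβca replicate 3) and 2.34, Atf3 between 0.95 (without Ikkβca replicate 2) and 2.64, and Fosb between 0.56 (without Ikkβca replicate 2) and 2.02, each highest without Stat3KO replicate 3 and none called. Without Ikkβca replicate 1 and Stat3KO replicate 3, the 2 libraries richest in gastric transcripts, Fos was called at 2.55 (edgeR adjusted p = 0.0297) and Fosb at 2.22 (edgeR adjusted p = 0.0264), with Atf3 at 2.86 (edgeR adjusted p = 0.0512). Those 2 libraries are also the one with the lowest Fos of the Ikkβca group and the one with the highest Fos of the Stat3KO group, so leaving them out widens this difference by its own values. The Stat3KO effect averaged over Ikkβca status gave no called member where 0.262% of genes were, with Ier3 nearest at -0.31 ± 0.16 (edgeR adjusted p = 0.458) and an interval for Jun that now lay within 2-fold (-0.83 to 0.57).

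Other genes of the route were taken from lists chosen for it. In the 8 comparisons edgeR called none of 17 tested AP-1 and ATF relatives, 38 other immediate early genes or 30 MAP kinase cascade genes. The same held for 7 serum response factor and ternary complex genes, 19 AP-1 regulated epithelial genes and 15 heat shock genes. From 0 to 2.72% of all tested genes were called in these comparisons, so 0 calls in lists this short lie near that share. The median log2 fold change of the 38 other immediate early genes was 0.17 in Ikkβca, -0.06 in Stat3KO and 0.15 in Ikkβca+Stat3KO, each against Control, beside all-gene medians of 0.00, -0.02 and 0.00. Those with the smallest p in Ikkβca were Sgk1, a kinase of ion transport and survival, at 0.63 ± 0.16 (edgeR adjusted p = 0.142) and Plk2 at 0.82 ± 0.27 (edgeR adjusted p = 0.246). Among AP-1 regulated epithelial genes Itga2, the collagen receptor subunit α2, was at 1.39 ± 0.38 (edgeR adjusted p = 0.158). Sgk1 and Itga2 were each called in 1 of 22 alternatives of this comparison, with DESeq2 (adjusted p = 0.0423 and 0.0216). For the Ikkβca effect averaged over Stat3 status, Sgk1 was called in 3 of 21 alternatives and Itga2 in 2. Dusp1, of the MAP kinase feedback list, was at 1.36 ± 0.59 in Ikkβca (edgeR adjusted p = 0.375). Averaged over Stat3 status Dusp1 was at 1.22 ± 0.42 (edgeR adjusted p = 0.189), and it was called in 3 of 21 alternatives: with DESeq2 (adjusted p = 0.0445), without Stat3KO replicate 3 (edgeR adjusted p = 0.0387) and without both gastric-rich libraries (edgeR adjusted p = 0.0294). Stat3KO replicate 3 held the highest Dusp1 of its group (111 CPM) and Ikkβca replicate 1 the lowest of its group (73.1 CPM). Leaving these libraries out thus widens the Dusp1 difference by its own values.

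Of the 15 MAP kinase feedback genes 1 was called, in a comparison where 0.262% of all tested genes were. Spred2, an inhibitor of Ras to ERK signalling, rose by 0.61 ± 0.10 with the Stat3KO effect averaged over Ikkβca status (edgeR adjusted p = 0.0409). It had 37.8, 39.4 and 38.6 CPM in Control, 45.7, 38.8 and 36.4 in Ikkβca, 78.6, 73.8 and 65.3 in Stat3KO and 55.1, 39.5 and 56.1 in Ikkβca+Stat3KO. The 3 Stat3KO libraries were the highest of the 12, and the call was lost in 13 of 21 alternatives (edgeR adjusted p = 0.193 with library totals, 0.126 without Control replicate 2 and 0.137 without Ikkβca replicate 3).

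NF-κB feedback genes, which answer directly to the kinase that was activated, are given for contrast. Of 14 tested, 6 rose and 0 fell in Ikkβca against Control, 7 rose in Ikkβca+Stat3KO against Control, 5 rose in Ikkβca+Stat3KO against Stat3KO, and 0 were called in Stat3KO. Of all genes, 0.955, 0.884, 0.46 and 0% were called in these comparisons. The call of Relb in Ikkβca against Control was lost in 8 of 22 alternatives, each fit without a library of either group among them, and that of Nfkb2, an NF-κB subunit, in Ikkβca+Stat3KO against Stat3KO in 15 of 22 (edgeR adjusted p = 0.0677 with the replicate block). Nfkbia lost its call in 3 to 5 of 22 in the 3 comparisons of single groups. Nfkbia, the gene of the NF-κB inhibitor IκBα, had 119, 125 and 116 CPM in Control, 264, 223 and 290 in Ikkβca, 109, 93.4 and 103 in Stat3KO and 189, 281 and 287 in Ikkβca+Stat3KO. The 6 libraries with the active kinase lay above the 6 without it. Averaged over Stat3 status Nfkbia rose by 1.21 ± 0.12 (edgeR adjusted p = 3.2e-04), Relb, an NF-κB subunit, by 1.52 ± 0.16 (edgeR adjusted p = 4.3e-04) and Birc3, an inhibitor of apoptosis, by 1.10 ± 0.13 (edgeR adjusted p = 0.00101). These 3 averaged calls held in each of 21 alternatives. In the same comparison Atf3 at 1.61 ± 0.74 and Fos at 1.32 ± 0.67 had larger estimates than Nfkbia, and the other members had smaller ones. The SEs of Atf3 and Fos were also larger, so the lack of a call does not show that they did not change. Neutrophil markers, 3 of 9 tested, summed to 277 to 747 CPM in Ikkβca against 29.5 to 63.6 in Control, and the list includes S100a8 and S100a9, which stressed keratinocytes also express. Their part in these rises was not tested.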

How the data were processed

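The authors deposited gene-level read counts for 12 libraries. Per the submitters' processing notes, cutadapt 1.13, STAR, HTSeq 0.6.1p1, DESeq2 and the mm10 build were used; the strand setting is not given in the sources used here. Counts were fitted with edgeR 4.0.16 (R 4.3.3, limma 3.58.1) as 1 quasi-likelihood model of 4 group means with TMM scaling, the filterByExpr rule (14134 of 23337 symbols kept) and robust estimation. A gene was called at a Benjamini-Hochberg adjusted p below 0.05 over all tested genes. Log2 values used a prior count of 2, and standard errors and 95% intervals came from the fit. DESeq2 1.42.0 was an alternative. The pipeline was tested on simulated counts. No pair of libraries within a group was a copy (smallest chi-square per degree of freedom 26.1). Depth of 14.8 to 30.2 M counts limits Fosl1 most.

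Members, the 8 pathway lists and the 14 marker lists were chosen with earlier results of these data known. Listed genes were named if called, at most 4 a list and comparison, otherwise at most 2 by smallest p, and the 5 genes most correlated with Fos and with Fosl1 were named. One gene that this rule named is not reported here. Of 295 list entries 288 matched by symbol, 4 by an older symbol and 3 were not found. Same-numbered libraries had r above 0.1 in all 3 pairs (0.12, 0.26 and 0.14) only for Stat3KO and Ikkβca+Stat3KO. All 3 pairs were also positive for Control with Ikkβca+Stat3KO (0.09, 0.45 and 0.42) and Control with Stat3KO (0.28, 0.07 and 0.09). Alternatives were other scalings, filters, a replicate block, fits of the compared groups alone and fits without single libraries.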

Additional observations from a re-analysis of the deposited data

How the results depend on the processing

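Each alternative refitted the whole gene table, and 1721 results were read from these fits, each for 1 member in 1 comparison. They share fits and libraries and are not independent checks. Of the 1721 results 2 were calls, Fos and Fosb for the Ikkβca effect averaged over Stat3 status. Both came without the 2 libraries rich in gastric transcripts, where the number of members called went from 0 to 2. In 129 of the results the sign changed and none of these was called. Leaving out single libraries called 0 members in each of the 8 comparisons. Of the scaling alternatives, library totals turned the sign of Fosl2 in Ikkβca+Stat3KO against Ikkβca (0.05) and of Jun in the interaction (0.03), both near 0 and uncalled. Fosl1 did not pass a filter of 1 CPM in 3 libraries.

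Counts of called genes over the whole table moved more. With DESeq2 they were 419 for Ikkβca, 104 for Stat3KO and 451 for Ikkβca+Stat3KO, each against Control, 131 for Ikkβca+Stat3KO against Ikkβca, 292 against Stat3KO, 5 for the interaction, 845 for the Ikkβca effect averaged and 375 for the Stat3KO effect averaged. Library totals gave 66 for Ikkβca and 53 for Ikkβca+Stat3KO against Control, 29 for Ikkβca+Stat3KO against Stat3KO, 217 for the Ikkβca effect averaged and 0 for the Stat3KO effect averaged. Fits of the compared groups alone gave 61, 14 and 16 for Ikkβca against Control, Ikkβca+Stat3KO against Control and Ikkβca+Stat3KO against Stat3KO. Without the 2 libraries rich in gastric transcripts the counts were 83 for Ikkβca against Control, 28 for Ikkβca+Stat3KO against Stat3KO and 23 for the Stat3KO effect averaged. Without single libraries the counts ranged from 42 to 145 for Ikkβca, 0 to 1 for Stat3KO and 43 to 147 for Ikkβca+Stat3KO against Control, 0 to 1 and 20 to 81 for Ikkβca+Stat3KO against Ikkβca and Stat3KO, 0 to 0 for the interaction, 184 to 444 for the Ikkβca effect averaged and 0 to 52 for the Stat3KO effect averaged. The cause of these moves was not tested.

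Replicate number goes with sex, since replicate 1 was female in each group. Of 18 same-numbered pairs 9 correlated above 0.1 in their deviations, and 7 of 12 libraries correlated best with their own number. All 3 pairs passed 0.1 only between Stat3KO and Ikkβca+Stat3KO, where the count of called genes was 71 with the block and 65 without it. With the number as a replicate block no member was called in any comparison (for Fos with the Ikkβca effect averaged, 1.65, edgeR adjusted p = 0.154), and the count for the Stat3KO effect averaged went to 0.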
